A study of Drosophila melanogaster with 4 samples.

Results

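Small RNA tags of exactly 21 nt that have a partner on the opposite strand were examined in Drosophila melanogaster, in males at the third larval instar. A tag is a distinct read sequence with its read count. The tags listed in 4 libraries were pooled, and a 21 nt tag without ambiguous bases was called paired when a stretch of at least 15 of its bases occurred in the reverse complement of a different 21 nt tag of the pool. This rule found 537 paired tags among 6986 tags of 21 nt and 252353 distinct tags of all lengths. The snapback group (n = 2 libraries) came from males that ectopically expressed ds 1.688 RNA, in which ds stands for double-stranded and 1.688 is a satellite repeat of the fly genome, and the yw group (n = 2 libraries) from males of a laboratory reference strain without it. Each library was made from 50 larvae homogenized together, and the labels name neither the promoter that drives the construct nor the number of transgenic lines. Whether the libraries of a group came from separate cultures is not stated, so p-values measure only the spread between these libraries, which may be technical. In RNA of whole larvae, fewer cells of a type and less RNA per cell cannot be told apart. The snapback libraries were also the shallower ones, and genotype and depth cannot be told apart in this design, so values at an equal level are given beside the main ones.

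In Drosophila, long double-stranded RNA is cut by the enzyme Dicer-2 into small interfering RNAs of 21 nt. The product of a cut is a duplex of 19 paired bases in which each strand ends in a 3′ overhang of 2 bases. One strand is retained by the effector protein Argonaute2 and the other, the passenger strand, is degraded, so the strands of a duplex are usually recovered unequally. Natural sources of such duplexes in flies are hairpin transcripts, transposons, overlapping genes on opposite strands, and viruses.

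Listed reads ran from 5330415 to 7782397 in snapback and from 15183229 to 20453996 in yw. The lists start at 4 reads, so an absent tag had at most 3 reads, which is 0.563 and 0.385 reads per 1000000 listed reads (RPM) in snapback replicates 1 and 2 and 0.147 and 0.198 RPM in yw replicates 1 and 2. Totals of the lists are not the full depth of the libraries, intervals are exact Clopper-Pearson 95% intervals, and intervals and floors cover counting error only. None of the 537 paired tags held any of the 56 most frequent 10-base words of the 40 nt tags, and 0 of the 6449 unpaired 21 nt tags held one. The place of the tags in the genome was not analysed here, and tags are therefore named by a letter for their group and a number for their rank within it. Strands are likewise relative to each other only.

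Over the distinct tags of the pool, opposite-strand partners were concentrated at 21 nt. The same rule, applied to tags of each length from 18 to 30 nt, found partners for 7.69% of the tags of 21 nt (interval 7.07 to 8.34). At 22 nt it found partners for 0.691% of tags (interval 0.489 to 0.947) and at 20 nt for 0.477% (interval 0.314 to 0.693). No tag of 23 nt had one among 4388, which allows a share of up to 0.0840% by the upper bound of the interval, and 25 nt was the only length above 22 nt with any. Those intervals treat tags as independent, which overlapping tags are not. By level the order did not hold in every library. Paired tags of 22 nt held 26.8 and 26.5 RPM in snapback and 163 and 77.3 RPM in yw. Those of 21 nt held 1401 and 1215 RPM in snapback and 259 and 52.0 RPM in yw, so yw replicate 2 had more at 22 nt. As a share of the reads of their length, paired tags in yw were 0.223% and 0.121% at 22 nt, against 0.618% and 0.192% at 21 nt.

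**Figure D1:**
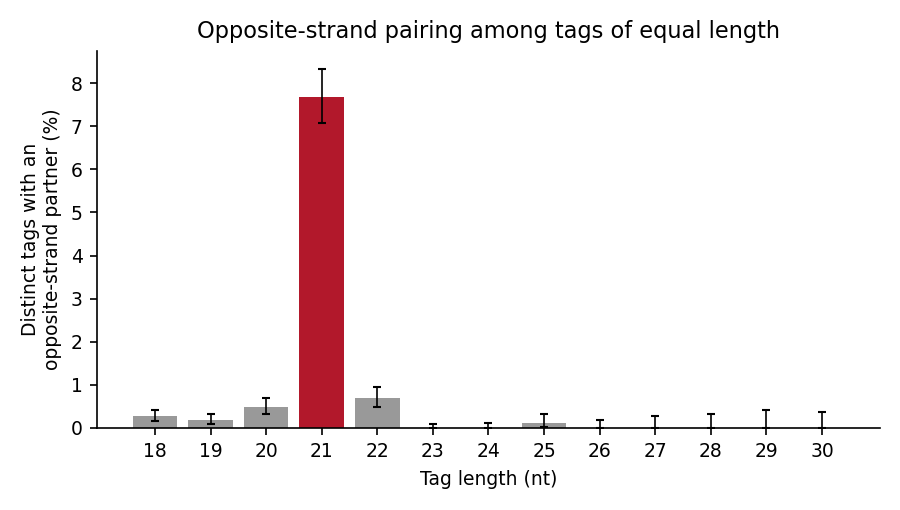
Share of distinct tags of each length (x axis, nt) that share 15 or more bases with the reverse complement of another tag of the same length (y axis, percent), over the pool of the 4 libraries. Error bars are exact 95% intervals. The bar at 21 nt reaches 7.69% and no other length exceeds 0.691%.

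Members just inside the limit of 15 bases and tags just outside it were alike in number. The longest shared stretch was exactly 15 bases in 61 tags and exactly 14 bases in 49 tags that were left out. The former held 46.0 and 46.3 RPM in the snapback libraries and 19.7 and 4.22 RPM in the yw libraries, and the latter 24.8 and 31.4 RPM in snapback and 30.6 and 5.27 RPM in yw. At the other end, 106 tags were complementary to another tag over all 21 bases.

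Paired tags were more abundant in snapback than in yw in every library comparison. The snapback libraries had 7466 and 9458 such reads, which is 1401 and 1215 RPM for replicates 1 and 2. In yw they held 5291 and 790 reads, or 259 and 52.0 RPM. The group means were 1308 ± 132 RPM for snapback and 155 ± 146 RPM for yw (SD over 2 libraries each), an 8.42-fold difference. The groups did not overlap, and the lowest snapback library was 4.70-fold above the highest yw library. With 2 against 2 libraries an exact two-sided permutation test cannot give a p below 0.333. The fold rested on yw replicate 1 for its size, because it was 25.1 without that library and 5.06 without yw replicate 2. Over reads of 18 to 30 nt it was 4.71, and over these without their most abundant tag it was 17.4.

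The share of 21 nt reads that were paired separated the genotypes more widely, but its denominator also differed. All 21 nt reads were 1.66% and 1.39% of listed reads in snapback and 4.18% and 2.71% in yw. The paired share was 8.44% in snapback replicate 1 (interval 8.26 to 8.62) and 8.75% in replicate 2 (interval 8.58 to 8.92). In yw it was 0.618% (interval 0.602 to 0.635) and 0.192% (interval 0.179 to 0.206). The difference between the group means was 8.19 percentage points. As distinct tags, 222 of 1262 and 309 of 1680 tags of 21 nt in the snapback lists were paired, against 242 of 4672 and 81 of 2980 in the yw lists. The number of paired tags thus overlapped between the groups, while their share of tags, 17.99% ± 0.566 against 3.95% ± 1.74 (SD over 2 libraries each), did not.

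Libraries of different depth list tags down to different levels. When only tags at or above 0.750 RPM, the level of 4 reads in the shallowest library, were used, 190 and 178 paired tags remained in the snapback libraries and 36 and 8 in the yw libraries. They were 15.1% and 15.9% of such tags in snapback, against 2.55% and 0.725% in yw. The same order was seen when a partner had to be listed in the same library. Then snapback had 169 and 267 paired tags at 1273 and 1162 RPM, against 153 and 16 at 155 and 6.65 RPM for yw.

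Most paired tags were listed in 1 genotype, and so were most unpaired 21 nt tags. Both genotypes listed 11.55% of paired and 10.95% of unpaired 21 nt tags. The pool held 284 tags listed in snapback only, 191 in yw only and 62 in both. Of the snapback-only tags, 145 were listed in both snapback libraries, whereas 46 of the yw-only tags were listed in both yw libraries and 140 in yw replicate 1 alone. Among the paired tags listed in both libraries of a genotype, log2 read counts correlated across tags with r = 0.901 in snapback (185 tags) and r = 0.609 in yw (70 tags). These are descriptions across tags that share a library, not tests. Among unpaired 21 nt tags the proportions were turned, with 15.1% in snapback only and 74.0% in yw only, against 52.9% and 35.6% of paired tags.

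**Figure D2:**
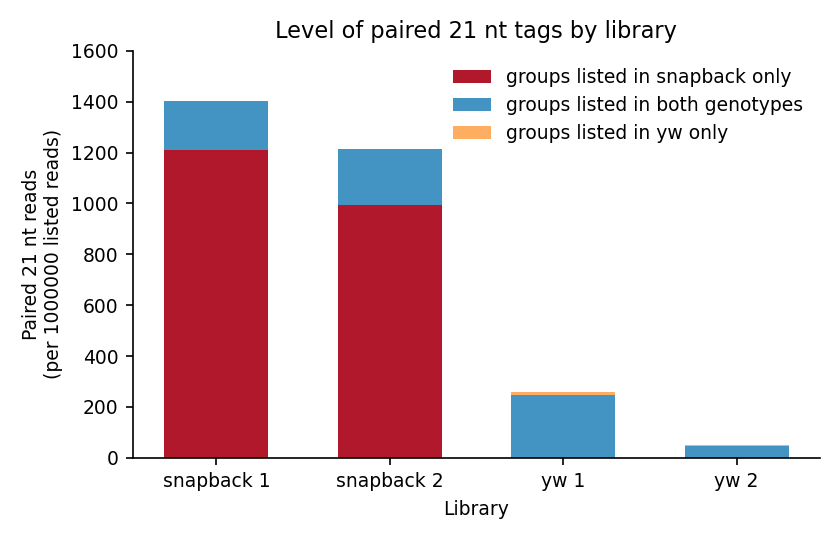
Summed level of the paired 21 nt tags (y axis, reads per 1000000 listed reads) in each library (x axis), stacked by whether their overlap group was listed in snapback only, in both genotypes or in yw only. The snapback libraries reach 1401 and 1215 and the yw libraries 259 and 52.0, and tags of groups listed in both genotypes are 190 and 223 in snapback and 248 and 48.3 in yw.

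Paired tags were joined into groups when they shared 15 bases on either strand, which gave 61 groups. Of these, 16 had at least 10 tags and together held 344 of the 537 tags, 31 had 3 to 9 tags and 14 had 2. Within every group all overlaps could be laid out along 1 axis without a contradiction. The strand with more RPM over the 4 libraries is called the major strand. Groups listed in snapback only numbered 12, with 188 tags. Groups listed in both genotypes numbered 45, with 329 tags, and groups listed in yw only numbered 4, with 20 tags.

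The snapback-only groups carried most paired reads of the snapback libraries, at 1211 and 992 RPM of the 1401 and 1215. The class is defined by yw listing none of it, and nothing further is read from that. Group A had 60 tags over 80 nt, group B 39 tags over 57 nt, group D 28 tags over 39 nt, group E 25 tags over 44 nt and group N 10 tags over 39 nt. Their levels in snapback replicates 1 and 2 were 328 and 252 RPM in A, 135 and 136 in B, 427 and 326 in D, 292 and 242 in E, and 9.005 and 12.5 in N. These groups were rich in A and T, which made up 64.0% of the bases in A, 65.2% in B, 70.4% in D, 67.8% in E and 64.3% in N. The median over the 12 snapback-only groups was 64.1%, against 61.2% over the 4 yw-only groups and 54.0% over the groups listed in both genotypes. The classes overlapped, with ranges from 52.4% to 73.8% in snapback-only groups and from 40.8% to 69.05% in groups listed in both. The lowest snapback-only group was AY, 1 of the smaller ones. By tag, A and T made up 64.9% of bases in the snapback-only groups, 61.7% in the yw-only groups, 53.9% in groups listed in both and 48.8% in unpaired 21 nt tags.

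Strand balance differed among the snapback-only groups of at least 10 tags. The minor strand held 11.7% and 16.9% of the reads of group A, 29.1% and 27.3% of B, 15.4% and 12.4% of D, 1.22% and 2.33% of E, and 22.9% and 25.8% of N. Group E was thus almost all of 1 strand, with 19 and 44 reads on the other. In the 7 smaller snapback-only groups few reads were listed and the replicates could lie far apart, as in group AD, where the minor strand held 10 of 10 and 5 of 26 reads. Both strands nevertheless covered 84.1% of the span of E and 88.8%, 91.2%, 92.3% and 69.2% of the spans of A, B, D and N. Over all 61 groups the minor strand held 13.7% and 15.7% of paired reads in snapback and 13.1% and 14.4% in yw, so this summed balance overlapped between the genotypes within 1 SD of the replicates (14.7% ± 1.39 and 13.8% ± 0.942, SD over 2 libraries each).

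**Figure D3:**
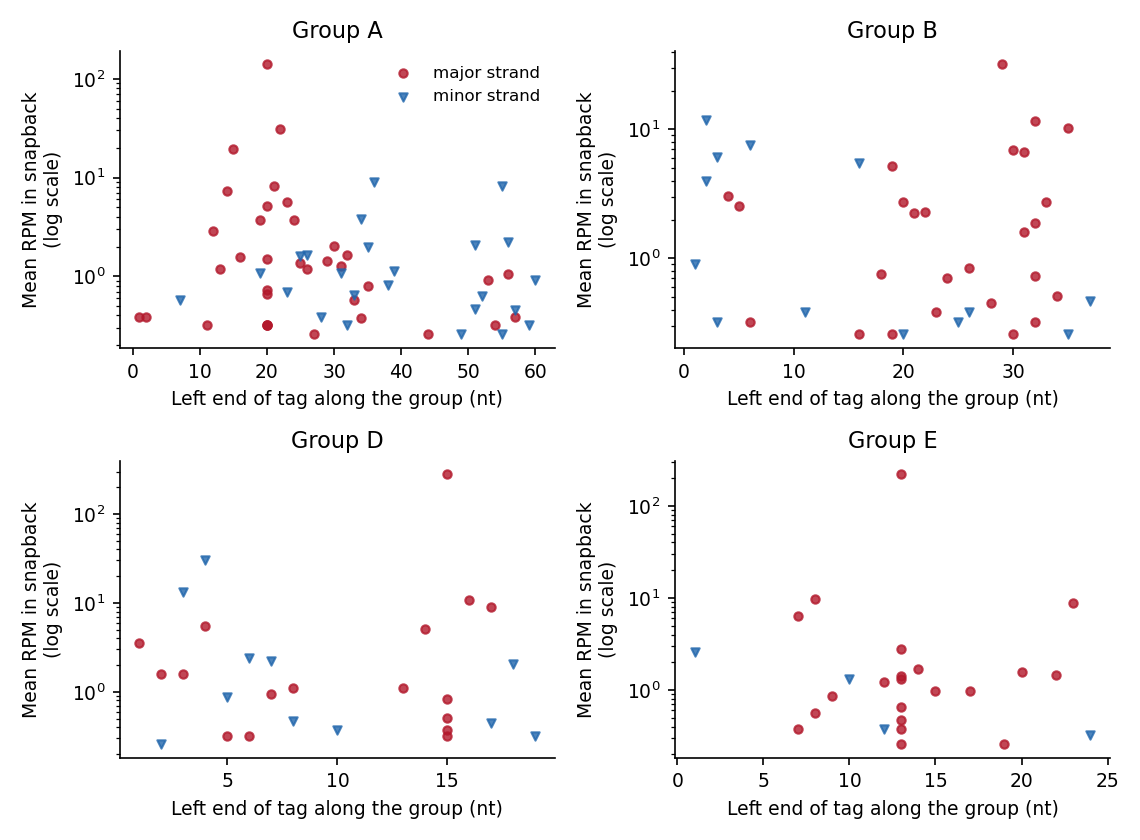
Tags of the snapback-only groups A, B, D and E, placed by the left end of each tag along its group (x axis, nt) and by its mean level in snapback (y axis, RPM, log scale, n = 2), with major-strand tags as circles and minor-strand tags as triangles. In D and E a tag on the major strand at 280 and 221 RPM stands far above its neighbours, while B has several tags of each strand near 10 RPM.

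Single positions dominated these groups. Tag D1 had 1691 and 1895 reads in the snapback libraries and was absent from both yw lists, as were all tags of these groups. Tag E1 had 1278 and 1570 reads and tag A1 had 850 and 947. The next tags, B1, A2, D2 and A3, had 184 and 229, 239 and 137, 189 and 200, and 135 and 104 reads. In RPM, D1 was at 280 ± 52.1, E1 at 221 ± 26.9, A1 at 141 ± 26.7, B1 at 32.0 ± 3.602, A2 at 31.2 ± 19.3, D2 at 30.6 ± 6.90 and A3 at 19.3 ± 8.46 (SD, n = 2). D1 made up 74.5% of the level of group D, E1 82.5% of E and A1 48.5% of A, but B1 only 23.5% of B. Against 3 reads per yw library, D1 was at least 1232-fold, E1 at least 1021-fold, A1 at least 616-fold and B1 at least 149-fold higher in snapback. Only D2 lay on a minor strand.

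The 4 most abundant snapback tags had partners that summed to at most 3.56% of their own level, and the others of the leading 8 had stronger ones. All 4 partners of D1 together held 3.18 RPM, or 1.13% of its level, and the 2 partners of E1 held 1.68 RPM, or 0.761%. The 4 partners of A1 held 5.01 RPM, or 3.56%, and the 3 partners of B1 held 0.964 RPM, or 3.01%. The single partner of A3 reached 5.57% of its level. The partners of A2 summed to 17.3% of its level, those of H1 to 17.9% and those of D2 to 48.5%, or 14.8 RPM, of which the blunt partner D6 held 5.46 RPM. No tag that would form a 19-base duplex with 3′ overhangs of 2 bases was listed for D1, E1, A1, B1, A2, A3 or H1. D2 had such a partner, D26, at 0.321 RPM against its own 30.6 RPM. The most abundant partner of D1 was offset to a 5′ overhang of 3 bases, that of A1 to a 5′ overhang of 6 bases, and that of E1 and of B1 to a 3′ overhang of 3 bases. An absent partner could still have had 3 reads in each library.

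Some members were 1-base variants of an abundant tag. Of the 537 paired tags, 26 differed by 1 base from a 21 nt tag at least 20 times as abundant, among them 8 of group A, 7 of E, 4 of D and 3 of B. They held 20.8 and 18.1 RPM in snapback and 0.978 and 0 in yw. Without such variants there were 511 paired tags and 823 pairs, the level was 8.32-fold higher in snapback, and 16 in place of 59 pairs had a mismatch in their overlap. Whether these variants are sequence differences between copies or reading errors was not tested.

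Groups listed in both genotypes were more alike in level. Together they held 190 and 223 RPM in snapback and 248 and 48.3 RPM in yw, so the genotypes overlapped. Of the 45 groups, 31 had the higher mean in snapback and 14 in yw. Of their 329 tags, 62 were listed in both genotypes, which are all such paired tags. Both genotypes listed 11.55% of all paired and 10.95% of unpaired 21 nt tags. These groups are defined by listing in both genotypes, so their count is a description. Group C, the largest, had 34 tags over 68 nt, of which 23 were listed in snapback, 21 in yw and 10 in both. Group H had 18 tags, with 13 in snapback, 11 in yw and 6 in both, and group G had 18 tags, with 11, 14 and 7.

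Groups C and H were higher in snapback. Group C held 37.3 and 38.0 RPM in snapback and 11.2 and 2.70 RPM in yw, and group H held 27.8 and 35.3 RPM in snapback and 5.23 and 0.263 RPM in yw. In neither did the genotypes overlap. Groups J and I were higher in yw. Group J held 961 and 241 reads in yw, or 47.0 and 15.9 RPM, against 12 and 27 reads in snapback, or 2.25 and 3.47 RPM. Every yw read of group J lay on its major strand, and its minor strand was listed in snapback replicate 2 only, with 10 reads. Group I held 37.7 and 3.10 RPM in yw and 2.06 and 3.86 RPM in snapback, so its yw mean came from replicate 1 and the genotypes overlapped. The same was true of group G at 35.6 and 5.93 RPM in yw and 12.4 and 16.2 RPM in snapback, and of group K at 22.2 and 3.82 RPM in yw and 5.44 and 3.73 RPM in snapback. Group M, with 10 tags, held 5.44 and 8.995 RPM in snapback and 6.26 and 1.05 RPM in yw, and group P, with 10 tags, 0 and 1.54 RPM in snapback and 4.60 and 0.922 RPM in yw. In group F the levels were 9.57 and 9.77 RPM in snapback and 11.4 and 2.37 RPM in yw, which overlap.

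The strand in excess changed with genotype in some of these groups. In group F the minor strand held 15 of 51 and 29 of 76 reads in the snapback libraries but 175 of 234 and 19 of 36 in the yw libraries. In group O it held 0 of 20 and 6 of 24 reads in snapback and 56 of 60 and 8 of 8 in yw. In group L it held 0 of 4 and 26 of 30 reads in snapback and 28 of 124 and 0 of 4 in yw, so there the libraries of 1 genotype were as far apart as the genotypes. These groups were picked out after their values were seen, and the counts are small. The pool also joined tags listed in different genotypes, which by itself can place the strands of a group in different genotypes. Over the 45 groups, the minor-strand share was higher in snapback in 22 and higher in yw in 23, with medians of 16.2% and 15.9%. Over their summed reads the share was higher in snapback, at 20.2% and 25.3% against 13.25% and 12.1% in yw. Reads of both strands were listed in snapback in 25 of the 45 groups and in yw in 23.

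The most abundant paired tags of yw were far below those of snapback. Tag I1 led with 304 and 8 reads in the yw libraries and was absent from snapback, at 7.70 ± 10.1 RPM (SD, n = 2). Tag J1 had 219 and 47 reads in yw, or 6.90 ± 5.38 RPM, and was absent from snapback. Tag K1 had 209 and 26 reads in yw against 7 and 6 in snapback, tag G1 had 182 and 36 against 7 and 6, and tag G2 had 190 and 21 against 0 and 7. Tags I2, J3 and J4 completed the leading 8, with 214 and 11, 151 and 42, and 130 and 38 reads in yw and 0 in snapback. All of them had fewer RPM in yw replicate 2 than in replicate 1. Among the leading 8 of snapback, H1 was the only one that yw also listed, with 65 and 128 reads in snapback and 34 and 0 in yw. Of the yw tags, I1 had its 19-base duplex partner, I17, listed in yw with 7 reads in replicate 1, while G2 had one, G13, in snapback only.

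No offset between partners stood out. The 537 tags formed 878 pairs, of which 819 were complementary over the whole overlap, 58 had 1 mismatch outside the shared stretch and the remaining pair had 2. A shared stretch of 15 bases allows 13 offsets, from a 5′ overhang of 6 bases to a 3′ overhang of 6 bases, and an even spread would put 7.69% of pairs in each. The 19-base duplex with 3′ overhangs of 2 bases was found in 74 pairs, or 8.43% (interval 6.68 to 10.5). The other offsets held from 54 to 79 pairs, with the lowest number at the blunt end and the highest at a 5′ overhang of 3 bases. In all, 401 pairs had 3′ overhangs, 423 had 5′ overhangs and 54 were blunt. Pairs share tags and are not replicates, so no test is given.

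**Figure D4:**
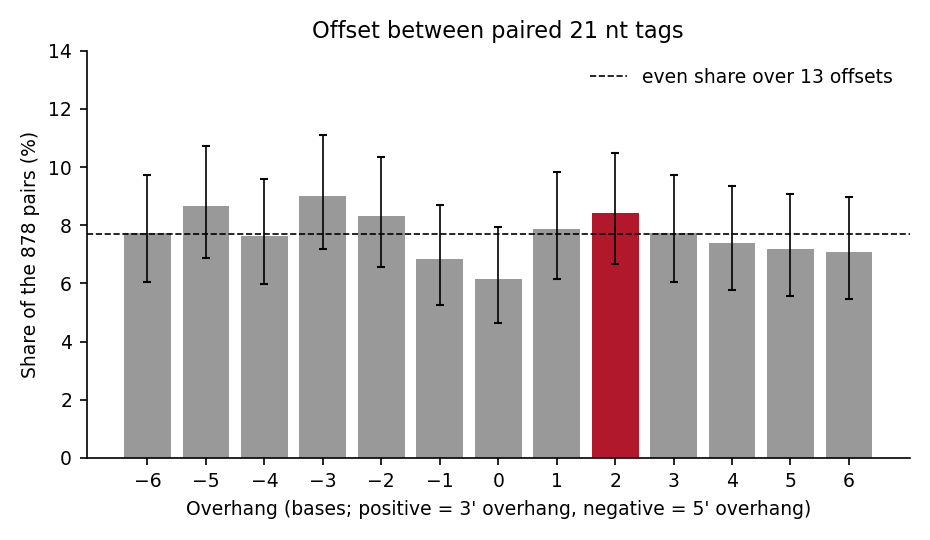
Share of the 878 pairs (y axis, percent) at each offset (x axis, bases of overhang, positive for 3′ and negative for 5′ overhangs), with exact 95% intervals and the even share of 7.69% as a dashed line. The bar at a 3′ overhang of 2 bases is 8.43%, and its interval holds the even share.

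Weighted by the level of the rarer tag, the 3′ overhang of 2 bases held 8.79% in snapback and 8.90% in yw, where a 5′ overhang of 5 bases held the most at 11.3%. Of pairs with both tags in snapback it held 41 of 538, or 7.62%, and of pairs with both tags in yw 15 of 177, or 8.47%. In groups listed in both genotypes it was the most frequent offset, with 45 of 439 pairs or 10.3%, and in snapback-only groups it held 27 of 414, or 6.52%. The pool joined tags across genotypes as well, since 166 of the 878 pairs had no genotype that listed both tags and 90 tags had a partner only in the other genotype. Both tags were listed in both genotypes in 3 pairs.

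Of the 74 pairs with 3′ overhangs of 2 bases, 69 were complementary over all 19 bases. They used 137 tags, or 25.5% of the members, in 31 groups. Both tags were listed in snapback in 38 of these duplexes and in yw in 14, and 20 joined tags of different genotypes. The commoner tag exceeded the rarer by a median of 3.20 times over the genotype means, with a range from 1.06 to 95.2.

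The duplexes with the highest level of the rarer tag in snapback lay partly outside the snapback-only groups. The first was group AW, which consisted of this duplex alone. Its strands AW1 and AW2 had 23 and 23 reads in snapback replicate 1 and 34 and 28 in replicate 2, and both had 0 and 4 in the yw libraries. The strands were thus recovered almost equally, at 4.34 and 3.96 RPM in snapback. In group AV, also a lone duplex, the strands had 47 and 9 reads in replicate 1 and 61 and 30 in replicate 2, and in yw 10 and 0 and then 14 and 4. Group B held 2 of the leading 6 duplexes, with B2 at 3.87 times B12 and B8 at 2.43 times B15. The others were G4 with G7, at 1.27 times, and E12 with E13, at 1.06 times.

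The leading duplexes of yw were fainter. F9 and F3 had 34 and 23 reads in yw replicate 1 and 0 and 8 in replicate 2. L2 and L7 had 37 and 14 reads in replicate 1, G14 and G16 had 27 and 8, and C26 and C28 had 8 and 7, and these 6 tags were absent from replicate 2 and from snapback. C10 and C27 were listed in different yw libraries. I1 exceeded I17 by 45.0 times.

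In flies the strand whose 5′ end is less stably paired tends to be retained, and a rough measure of this is the number of A and T among its first 4 bases. Over the 69 duplexes the commoner tag had more A and T there in 27, the rarer tag in 26, and both the same number in 16, with means of 2.41 and 2.39. Among the 29 duplexes in which the commoner tag was at least 4 times as abundant, it had more A and T in 14 and fewer in 8. Duplexes share groups and libraries, so these counts are descriptions.

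First bases of paired tags were T or A more often than C or G. Over distinct paired tags, 38.4% began with T, 29.4% with A, 23.3% with C and 8.94% with G. At positions 2 and 3 the share of G was 17.5% and 24.2%, so low G was a feature of the first position. Unpaired 21 nt tags began with C in 17.7% and with G in 14.2%. Their share of G was also higher at positions 2 and 3, at 25.3% and 39.5%. At position 19, which lies opposite the first base of the partner in a 19-base duplex, A was the commonest base of paired tags at 35.0%, against 25.1% at position 20. In unpaired tags A also fell from 30.4% at position 19 to 17.5% at position 20.

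Weighted by reads, the first base differed between the genotypes. T began 55.2% and 51.4% of paired reads in snapback and 32.9% and 32.5% in yw. C began 6.50% and 9.47% in snapback and 27.1% and 23.8% in yw, and G began 3.78% and 3.85% against 12.2% and 12.9%. The means were 53.3% ± 2.72 and 32.7% ± 0.290 for T and 7.99% ± 2.11 and 25.5% ± 2.33 for C (snapback first, SD over 2 libraries each), and neither overlapped between the groups. Abundant tags set much of this. Over distinct tags the T difference was 3.92 percentage points in place of 20.6 and the C difference -1.09 in place of -17.5, and without the most abundant paired tag of each library they were 14.1 and -17.7. Within groups listed in both genotypes, C came first in 28.2% and 30.6% of reads in snapback and 28.1% and 24.4% in yw. T came first there in 39.98% and 37.2% against 31.1% and 30.9%, so T did not overlap. A came first in 22.8% and 22.2% against 28.1% and 30.8%, lower in snapback, while over all groups it was higher there at 34.5% and 35.3% against 27.8% and 30.8%.

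Unpaired 21 nt reads had another profile. C began 5.45% and 6.83% of them in snapback and 3.49% and 3.73% in yw. In every library C was a more frequent first base among paired than among unpaired reads, by the most in yw. T began 73.7% and 63.6% of unpaired reads in yw against 26.5% and 37.4% in snapback, the reverse of the order in paired reads.

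**Figure D5:**
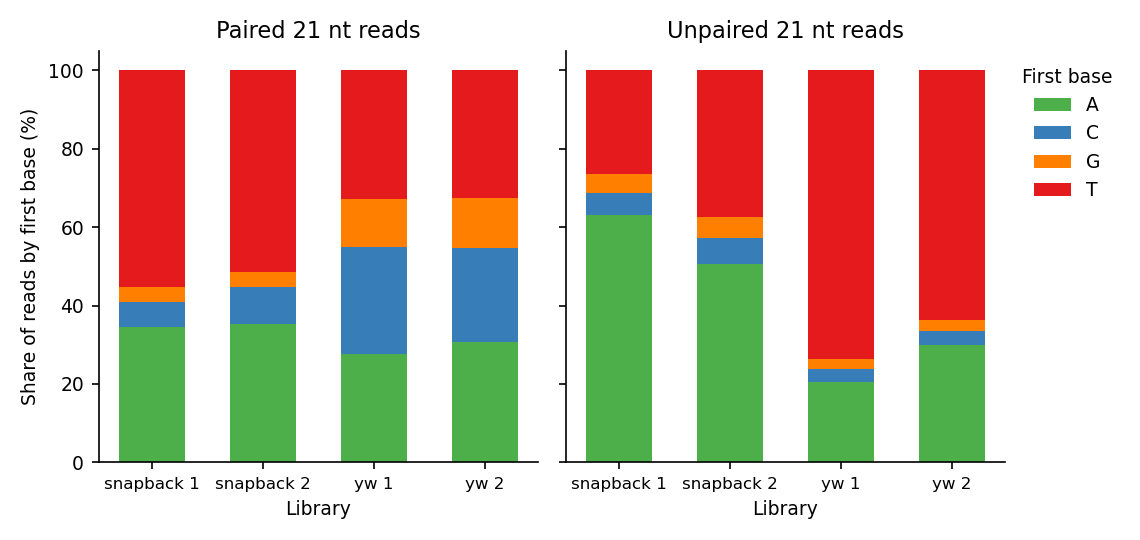
Share of reads (y axis, percent) that begin with A, C, G or T in each library (x axis), for paired 21 nt reads on the left and unpaired 21 nt reads on the right. Paired reads begin with C in 6.50% and 9.47% in snapback and 27.1% and 23.8% in yw, and unpaired reads in at most 6.83%.

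Reads beside the members varied in length. Tags of 18 to 30 nt that shared 15 bases with a member on either strand, the 537 members left out, numbered 705. Of their reads, 21.2% and 18.9% were 21 nt long in snapback and 37.1% and 55.7% in yw. The members are 21 nt by rule, and with them kept these shares were 86.0% and 75.8% in snapback and 64.25% and 84.85% in yw. Beside the snapback-only groups the 705 tags held 1179 and 1730 reads in the snapback libraries. Of these reads 135 and 201 were 21 nt long and 575 and 735 were 22 nt long. These groups themselves held 6453 and 7721 reads there. Beside the groups listed in both genotypes, 47.4% and 24.5% of such reads were 21 nt long in snapback and 37.2% and 57.9% in yw, which overlap. Of the 705 tags, 126 were 21 nt long and had no partner of their own, at 64.2 and 97.3 RPM in snapback and 127 and 15.1 RPM in yw.

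Tag by tag, 145 of the 537 members had enough reads to be tested with the quasi-likelihood test of edgeR, fitted and adjusted over all 30852 tags that passed the filter. Of these 145, 124 differed between the genotypes at an adjusted p under 0.05, against a background of 79.1% of all tags tested. Higher in snapback were 110 members (background 36.8%) and lower 14 (background 42.3%). Of the 971 unpaired 21 nt tags tested, 225 were higher and 470 lower. A tag that passed the filter through 1 genotype had to differ, and 101 of the 110 higher members were absent from yw and 9 of the 14 lower ones from snapback, so these counts do not add to the levels given above. The same holds for D1, E1, A1, B1, D2 and A2, which had the largest fitted increases. The median log2 difference was 6.81 over the members tested and -0.71 over all tags tested. With absent tags at 3 reads these medians were 2.88 and -0.27. Most members tested were absent from yw, so the filter also sets the median over members, which is a description and adds nothing to the levels. With library totals in place of the TMM scaling of edgeR, the median of all tags was 0.09. Of the members tested, 78 lay in snapback-only groups, 66 in groups listed in both genotypes and 1 in a yw-only group.

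Tags that both genotypes listed were not absent from either, but listing needs only 4 reads in a library. AW1, AW2, AV1, AV2 and C1 passed the filter through snapback alone, and G1, G2 and K1 through yw alone. The filter therefore favoured a difference in these tags as well, and their calls are given as descriptions. Of the 62 such members 35 were tested, and 9 were higher in snapback, 5 were lower and 21 did not pass. Over all tags tested 36.8% were higher and 42.3% lower, and the shares for all tags listed in both genotypes were not computed. Both strands of the duplexes AW and AV were among the higher. AW1 rose by 4.01 ± 1.19 on the log2 scale and AW2 by 3.86 ± 1.16 (SE, edgeR adjusted p = 0.0129 and 0.0136), and AV1 rose by 2.47 ± 0.90 and AV2 by 3.45 ± 1.18 (edgeR adjusted p = 0.0307 and 0.0245). In group C, 2 of 7 such tags rose and 5 did not pass. C1, with 45 and 46 reads in snapback and 5 and 0 in yw, rose by 4.62 ± 1.21 (edgeR adjusted p = 0.00677). In group H, 1 of 4 rose. H1 had a log2 difference of 3.08 ± 1.44 and did not pass (edgeR adjusted p = 0.0775), but it passed with library totals in place of TMM (edgeR adjusted p = 0.0123) and with absent tags at 3 reads (edgeR adjusted p = 0.0201), and over the other alternatives its adjusted p lay between 0.0627 and 0.532.

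The lower members that both genotypes listed lay in groups G, J and K. In group G, the major-strand tags G1, G2 and G5 fell, G1 by 3.50 ± 1.04 (edgeR adjusted p = 0.0131), and the other 3 tested did not pass. In group J, the one such tag tested, J2, had 6 and 11 reads in snapback and 113 and 35 in yw and fell by 2.63 ± 0.93 (edgeR adjusted p = 0.0286). The other 6 tested tags of group J were absent from snapback and so had to differ. K1 fell by 3.57 ± 1.13 (edgeR adjusted p = 0.0173). The tested tags M1 and M2 of group M did not pass. Tags listed in 1 genotype only are given by their reads. G7, on the minor strand of group G, had 13 and 13 reads in snapback and none in yw, and F4, on the minor strand of group F, had none in snapback and 35 and 14 in yw, while F1 and F2 on its major strand had 15 and 21 and 10 and 21 in snapback and none in yw. With the replicate number as a block, 0 of the 145 members passed in edgeR and 49 had an unadjusted p under 0.05. Without snapback replicate 1, snapback replicate 2, yw replicate 1 or yw replicate 2, 0 members passed in each case, while 3, 3, 106 and 133 had an unadjusted p under 0.05 in edgeR, and without the low-count filter 7 of the 537 passed.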

How the data were processed

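Small RNA of male larvae of the third instar was sequenced in 4 libraries, 2 per group. Per the labels' protocols, RNA was extracted in Qiazol, enriched with the miRNeasy kit and made into libraries with an Illumina small RNA TruSeq kit. The authors deposited, per the file headers, a count of reads for each distinct tag. These are whole raw counts, listed from 4 reads. The submitters' processing notes name the build dm3. The trimming tool is not given in the sources used here, and tags carry no coordinates.

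Tags without ambiguous bases were indexed by 15-base words in Python 3.11.15, and partners, offsets and groups were read from shared words. This step was tested on simulated sequences with planted pairs. RPM is reads per 1000000 listed reads, with absent tags at 0. Counts of all tags were compared with edgeR 4.0.16 in R 4.3.3 (TMM, filterByExpr, quasi-likelihood test, Benjamini-Hochberg adjustment over all tags tested, threshold 0.05), an approach tested on simulated counts, and with DESeq2 1.42.0 as an alternative. Replicates differed beyond sampling noise (chi-square over its degrees of freedom, 1350 for snapback and 793 for yw), so none was counted as a repeat of another.

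The members and lists were chosen with earlier results of these data known. Named are the 6 duplexes with the highest level of the rarer tag and the 8 most abundant tags in each genotype, the 6 largest called increases and decreases with a mean of at least 10 RPM (0 decreases qualified) and groups of at least 10 tags. Other named tags were chosen after their values were seen. Replicate numbers mark no stated shared batch and were not used as pairs.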

Additional observations from a re-analysis of the deposited data

How the results depend on the processing

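The rule for variants and that for tags listed in both libraries of a genotype were added after seeing the data. The level was higher in snapback under all alternatives run, by 2.23 to 4.65 on the log2 scale against 3.07, the range without any 1 library being 2.34 to 4.65. Restricted to tags listed in both libraries of a genotype it was 24.2-fold, with 163 members, and with a partner in the same library 15.1-fold. The paired share of 21 nt reads differed by 9.47, 7.73 and 6.77 percentage points with shared stretches of 13, 17 and 19 bases, by 14.04 over distinct tags and by 7.07 for tags listed in both libraries, against 8.19. It was 7.97 to 8.40 without any 1 library. The share of pairs with 3′ overhangs of 2 bases was 6.2%, 12.4% and 22.7% with stretches of 13, 17 and 19 bases, which allow 17, 9 and 5 offsets and so even shares of 5.88%, 11.1% and 20%.

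First-base differences were 3.92 (T) and -1.09 (C) over distinct tags and 14.1 (T) without the most abundant tags. Without any 1 library they ranged from 18.6 to 22.5 and from -19.1 to -15.8. The minor-strand share in snapback was 11.0% with a stretch of 17 bases. The cause was not tested.

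Without the low-count filter edgeR called 7 members (7 higher, 0 lower; 99 of 537 at an unadjusted p under 0.05). With the replicate block it called 0 members (0 higher, 0 lower; 49 at an unadjusted p under 0.05). Deviations of same-numbered libraries correlated at 0.0303 over 8997 tags, which cannot show whether they shared a batch. Leaving out any 1 library gave 0 to 0 calls, higher or lower, with 3, 3, 106 and 133 members at an unadjusted p under 0.05 without snapback replicates 1 and 2 and yw replicates 1 and 2. Each of these fits leaves 1 library in a group, whose spread is taken from the other group, and says nothing about stability. DESeq2 called 121 members (background 76.1%). Of 14 named tags tested, 6 no longer passed without the filter and 13 with the block, none turned direction, and 1, H1, was gained with library totals and with absent tags at 3 reads. The 4-read minimum limits what absence of a partner shows.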

Other observations

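By distinct tags, pairing at lengths next to 21 nt was sparse but present. Among 22 nt tags, 38 had an opposite-strand partner of 22 nt in 67 pairs, and among 20 nt tags 27 had one in 18 pairs. No 21 nt tag was complementary to itself over 15 bases.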
